A study of Mus musculus with 4 samples.

Results

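The cells described here are natural killer (NK) cells of mouse tumors, picked from single-cell RNA libraries by the RNA of their receptors and effector proteins. A barcode entered when it held at least 300 genes, at least 500 UMIs (unique molecular identifiers, each marking 1 captured RNA molecule) and at most 20% mitochondrial UMIs, and then passed a gate on raw UMIs. The gate asked for at least 1 UMI of Ncr1 or Klrb1c and at least 1 over Klre1, Klra7, Klra8, Klra4, Gzma, Prf1 and Eomes. It allowed at most 1 UMI over Cd3d, Cd3e and Cd3g, none of Cd8b1 and at most 2 over C1qa, C1qb and C1qc. This left 398 NK cells of 56088 kept barcodes, 54 in WT B16F10, 89 in Lrrc25-/- B16F10, 88 in WT MC38 and 167 in Lrrc25-/- MC38. Because these genes chose the cells, their values are given as a description, with no test. The 4 samples differed in no other labelled way, and the labels name no cell type but tumor cells.

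The study set wild-type (WT) mice beside Lrrc25-/- mice, each carrying B16F10 tumors (a melanoma line) taken at day 14 or MC38 tumors (a colon adenocarcinoma line) taken at day 26, with no treatment. Each of the 4 groups was 1 library, made from 3 mice of which each gave 100 mm3 of tumor to the pool. Cells caught on CD45 beads were put back together with unsorted suspension at 5 to 1 and run on a SeekOne droplet 3' kit. Neither age nor sex of the mice is stated by the labels. With 1 library a group there is no replicate within a tumor model, so differences inside a model carry counting error only.

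NK cells are innate lymphocytes that kill target cells by releasing perforin and granzymes from lytic granules, without needing a rearranged antigen receptor. Activating receptors such as NKp46 (Ncr1) and NK1.1 (Klrb1c) are weighed against inhibitory receptors that read MHC class I. In tumors they also secrete interferon gamma and chemokines such as XCL1 and CCL5, which are known to draw dendritic cells and other lymphocytes.

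The kept barcodes numbered 9799, 12299, 17286 and 16704 in the order WT B16F10, Lrrc25-/- B16F10, WT MC38, Lrrc25-/- MC38, which is the order of all values below. The NK cells held 186377, 295773, 745623 and 1126352 UMIs, with medians of 1716, 2170, 7064.5 and 4404 per cell, so the B16F10 values rest on far fewer molecules. Lrrc25 itself gave 2, 0, 1 and 0 UMIs in the NK cells, too few to check the genotype there. In C1q-high macrophages of the same libraries it stood at 141, 4.66, 90.2 and 1.99 counts per 1000000 UMIs (CPM), low in both Lrrc25-/- libraries. The 2 tumor models also differed in host RNA: Xist was at 0 CPM in NK cells of both B16F10 libraries and at 727 and 751 CPM in those of WT and Lrrc25-/- MC38. Model, day of harvest and this host difference cannot be told apart. Between 84 and 215 barcodes were shared by any pair of libraries, and none was an NK cell in both.

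RNA of other cells was present in the gated cells. The 12 macrophage markers summed to 853, 1724, 448 and 758 CPM in NK cells, or 3.22%, 6.11%, 2.20% and 3.01% of their level in macrophages, higher with Lrrc25-/- in both models. The list holds the 3 C1q genes, which the gate capped; the other 9 markers stood at 4.05%, 8.50%, 2.90% and 3.89% of their macrophage level. Of the 12 markers 1, 0, 1 and 0 were at 0. The 6 melanoma markers summed to 553 and 338 CPM in the B16F10 libraries and to 1.34 and 0 CPM in MC38, where 5 and 6 of them were at 0. The 7 stromal and endothelial markers summed to 767, 60.9, 247 and 212 CPM, and the 7 B cell markers to 91.2, 267, 99.2 and 63.0 CPM. A set of 13 NK barcodes (1, 0, 5 and 7) held at least 5 UMIs of 8 tumor or stromal genes and 12.5% of all NK UMIs. No doublet caller was run. Their part in the results was not tested except where values without them are given.

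The NK label has 4 markers, all of which belong to the gate, so their levels describe the cells and do not check the label. Ncr1, which is close to specific for NK cells, stood at 166, 189, 110 and 115 CPM, and Klrb1c at 274, 379, 114 and 231 CPM. Both were at 0 in every gated CD8 T cell and macrophage, which the gates of those classes set. Klre1, an NK receptor of the lectin family, was at 451, 561, 299 and 288 CPM in NK cells, against 41.5, 65.0, 246 and 193 CPM in CD8 T cells and at most 1.03 CPM in macrophages. Eomes, a transcription factor of conventional NK cells, was at 91.2, 176, 95.2 and 136 CPM in NK cells and between 20.7 and 28.4 CPM in CD8 T cells. All 4 markers were highest in NK cells in each library, which the gates set for Ncr1 and Klrb1c and favored for Klre1 and Eomes. Klre1 was also plain in CD8 T cells of MC38.

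Identity was also read from genes outside the gate. Tyrobp, the adaptor DAP12 of activating receptors, was at 1985, 2502, 1210 and 1264 CPM in NK cells, against 675, 469, 89.7 and 154 CPM in CD8 T cells. Macrophages also carry it, at 1786 to 2269 CPM. Il2rb, the receptor chain for IL-2 and IL-15, was near level over the libraries at 649, 734, 700 and 700 CPM and at most 5.09 CPM in macrophages. CD8 T cells held less of it in B16F10 but about as much in MC38 (values below), so there it does not part NK from CD8 T cells. Trac, the T cell receptor alpha constant gene, stood at 16.1, 20.3, 12.1 and 9.77 CPM against 356 to 535 CPM in CD8 T cells. The gap was smaller for the 15 T cell markers together, which include the Cd3 genes and Cd8b1 of the gate. They summed to 703, 747, 857 and 875 CPM in NK cells, against 4610, 5817, 5026 and 5964 CPM in CD8 T cells. The plot of marker RNA in 3 cell classes sets such genes beside gate genes (Ncr1, Klrb1c, Klre1, Eomes, Cd3e and C1qa), whose order the gates set or favored.

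**Figure D1:**
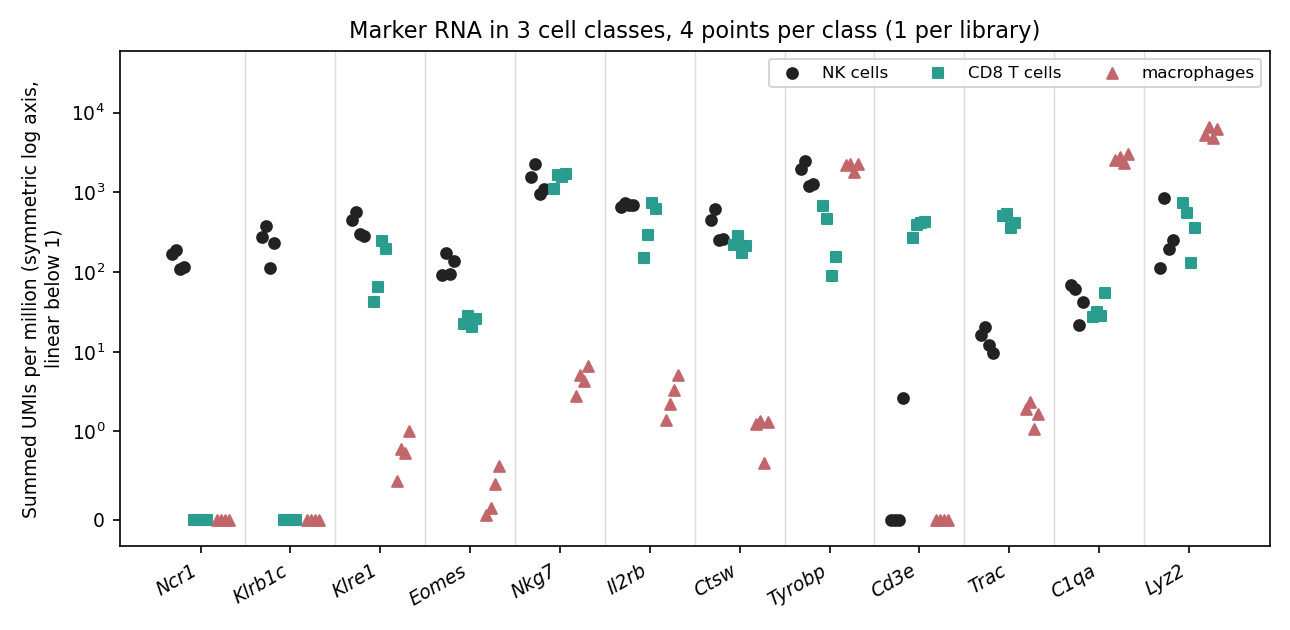
Summed CPM (symmetric log axis, linear below 1) of 12 genes in NK cells, CD8 T cells and C1q-high macrophages, 1 point per library and class, in the order WT B16F10, Lrrc25-/- B16F10, WT MC38, Lrrc25-/- MC38 from left to right. Ncr1 and Klrb1c lie above 100 CPM in NK cells and at 0 in the other classes, which their gates required.

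After each cell was thinned to 1000 UMIs, leaving out the 21 shallower NK cells, a UMI of Ncr1 was found in 22.2%, 19.0%, 6.82% and 10.3% of NK cells and one of Klre1 in 26.7%, 46.8%, 20.5% and 23%. Without thinning Ncr1 was found in 33.3%, 43.8%, 54.5% and 46.7%, an order that follows the depth of the cells. In macrophages the thinned share for Klre1 was 0.2% or less in each library. Many members therefore passed narrowly: 197 of 398 held 1 UMI over Ncr1 and Klrb1c, and 33 held 1 over the effector set. Just outside stood 14 barcodes with 2 Cd3 UMIs, beside 34 members with 1, and 27 with 3 C1q UMIs, beside 63 members with 2. A further 80 barcodes failed on C1q alone.

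NK cells made up 0.551% (95% exact binomial interval 0.414 to 0.718) of kept barcodes in WT B16F10 and 0.724% (0.582 to 0.890) in Lrrc25-/- B16F10. The ratio was 1.31 (0.926 to 1.88), an interval that holds 1. With at least 2 UMIs of Ncr1 and Klrb1c it was 2.14 (1.18 to 4.07), and with each cell thinned to 2000 UMIs 2.69 (1.46 to 5.21). The interval held 1 with cells thinned to 1000 UMIs, at 1.28 (0.758 to 2.18), and with no Cd3 and no C1q UMI allowed, at 1.40 (0.840 to 2.39). It also held 1 without NK cells over 2 times the median UMIs, at 1.38 (0.935 to 2.08), and among barcodes with a Ptprc UMI, at 1.26 (0.835 to 1.93). In MC38 they made up 0.509% (0.408 to 0.627) in WT and 1.00% (0.854 to 1.16) in Lrrc25-/-, a ratio of 1.96 (1.51 to 2.57). Beside each 100 gated T cells stood 5.19, 4.93, 7.86 and 8.21 NK cells, with genotype ratios of 0.950 (0.670 to 1.36) and 1.04 (0.802 to 1.37). Both intervals hold 1. After thinning, the ratios per T cell were 0.598 (0.355 to 1.02) in B16F10 and 1.89 (1.13 to 3.29) in MC38 at 1000 UMIs, and 1.59 (0.864 to 3.09) and 1.52 (1.04 to 2.28) at 2000 UMIs. The ratio thus depended on the denominator and the depth. With no Cd3 and no C1q UMI allowed, the MC38 ratio was 1.11 (0.754 to 1.64), and with each cell thinned to 1000 UMIs it was 3.22 (1.93 to 5.62). These intervals cover counting error only, and the bead enrichment bears on every share.

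**Figure D2:**
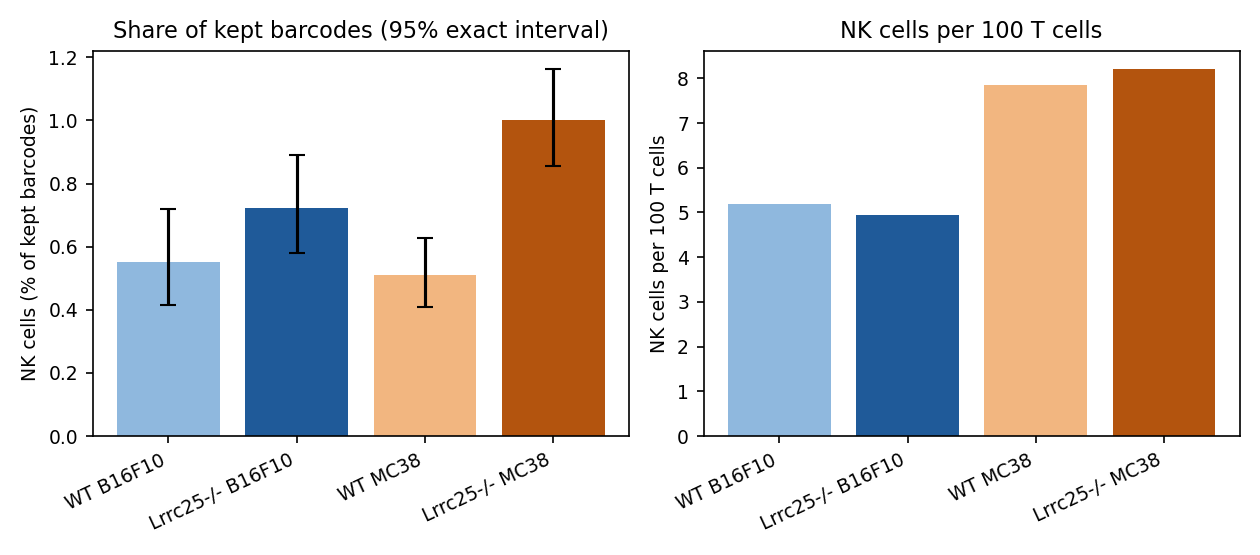
Left, NK cells as a percentage of kept barcodes in each library, with 95% exact binomial intervals; right, NK cells per 100 gated T cells. Lrrc25-/- MC38 stands highest on the left at 1.00%, while on the right the bars are 5.19, 4.93, 7.86 and 8.21, close together within a model.

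More genes were called between tumor models than between genotypes. To compare them, UMIs were summed per library and fitted with edgeR's quasi-likelihood test, with genotype as a second term, over 6113 genes. A log2 fold below is MC38 over B16F10. The test called 1211 genes (19.8%) higher in MC38 and 1098 (18%) lower, at an adjusted p under 0.05. DESeq2 called 155 and 224, and 377 genes were called by both. The fit had 1 residual degree of freedom and took its spread from the trend over all genes, so a gene whose 2 libraries of a model disagree can still be called. DESeq2's adjusted p is given beside edgeR's. Without the 270 NK cells holding at least 3 UMIs of other-lineage markers, edgeR tested 1613 genes and called 99 higher and 56 lower. The largest log2 folds among calls higher in MC38, after the exclusions given below, were those of Hmga2 (8.64), Tubb3 (8.15), Crabp2 (7.94), Micu3 (7.85) and Map1b (7.80). Hmga2, Crabp2 and Map1b are among the 8 tumor or stromal genes that picked the 13 barcodes above, which held 92.7% of the NK UMIs of Hmga2. Without those barcodes edgeR called 1143 genes higher and 1055 lower.

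NK cells of MC38 tumors held far less cytokine and chemokine RNA. Of 10 tested genes of this list 8 were lower in MC38 and none higher, with a median log2 fold of -3.03 against 0.06 over all genes, and DESeq2 called the same number of them lower. The drop was not particular to NK cells. The 16 genes of the list summed to 14980, 12665, 1266 and 2497 CPM in NK cells, to 6286, 8305, 1348 and 2871 CPM in CD8 T cells and to 6779, 7381, 1326 and 1826 CPM in macrophages. The model difference was lower in NK than in CD8 T cells for 4 of 14 tested genes of the list (Ifng, Ccl1, Ccl3 and Ccl4) by edgeR's interaction test, and for Xcl1 and Ccl5 it did not pass (adjusted p = 0.98 and 0.59). Xcl1, the chemokine for XCR1-bearing dendritic cells, stood at 4620, 3493, 767 and 1017 CPM. Both B16F10 libraries lay above both MC38 libraries, by a log2 fold of -2.48 ± 0.18 (SE, edgeR adjusted p = 1.1e-41, DESeq2 9.2e-17). Of the Xcl1 UMIs in WT B16F10 35% came from 1 cell. The call for Xcl1 and those for Ccl5, Ifng, Cd7, Styk1, Inpp4b, Bach2 and Gzmc held in each of 10 alternatives, with the Xcl1 fold between -2.97 and -1.41.

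Ccl5, a chemokine for T cells and myeloid cells, stood at 4566, 6306, 274 and 1112 CPM, again higher in both B16F10 libraries (log2 fold -3.55 ± 0.18, edgeR adjusted p = 9.2e-83, DESeq2 2.8e-05). Ifng, the gene of interferon gamma, was at 225, 298, 21.5 and 60.4 CPM (-3.0 ± 0.31, edgeR adjusted p = 5.3e-20, DESeq2 3.2e-06). In CD8 T cells of the same libraries Ifng ran the other way, at 119, 197, 283 and 310 CPM. That difference between the classes was itself tested and stood at -3.39 on the log2 scale (edgeR interaction, adjusted p = 1.2e-19, DESeq2 1.7e-08). Ccl3 at 1213, 477, 9.39 and 29.3 CPM and Ccl4 at 987, 1535, 13.4 and 111 CPM followed Ccl5. Macrophages carried much Ccl4, at 4494, 4229, 324 and 265 CPM, and the part of their RNA in the NK values was not tested.

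Lytic genes split. Gzmc, a granzyme, was the most abundant at 5650, 5146, 14898 and 10769 CPM, higher in both MC38 libraries (log2 fold 0.93 ± 0.13, edgeR adjusted p = 3e-11, DESeq2 0.00036). In B16F10 it came from few cells, with UMIs in 10 of 54 and 14 of 89 NK cells against 73 of 88 and 84 of 167 in MC38, and its log2 fold ranged from 0.75 to 6.04 over the alternatives. Gzma, which belongs to the gate, went the other way at 2693, 4189, 700 and 1114 CPM. Prf1, perforin and also a gate gene, was at 247, 429, 955 and 737 CPM. Gzmb stood at 789, 937, 1793 and 1117 CPM and did not pass (0.41 ± 0.20, edgeR adjusted p = 0.094, DESeq2 0.29). Of 18 tested granule and death ligand genes outside the gate 5 were higher in MC38 (Gzmc, Gzmd, Gzme, Gzmf and Rab27a) and 6 lower, among them Nkg7, a granule membrane protein, Ctsw, a cathepsin of cytotoxic cells, and Fasl, a death ligand. Over all genes 19.8% were higher in MC38 and 18% lower. Nkg7 stood at 1567, 2269, 944 and 1094 CPM.

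**Figure D3:**
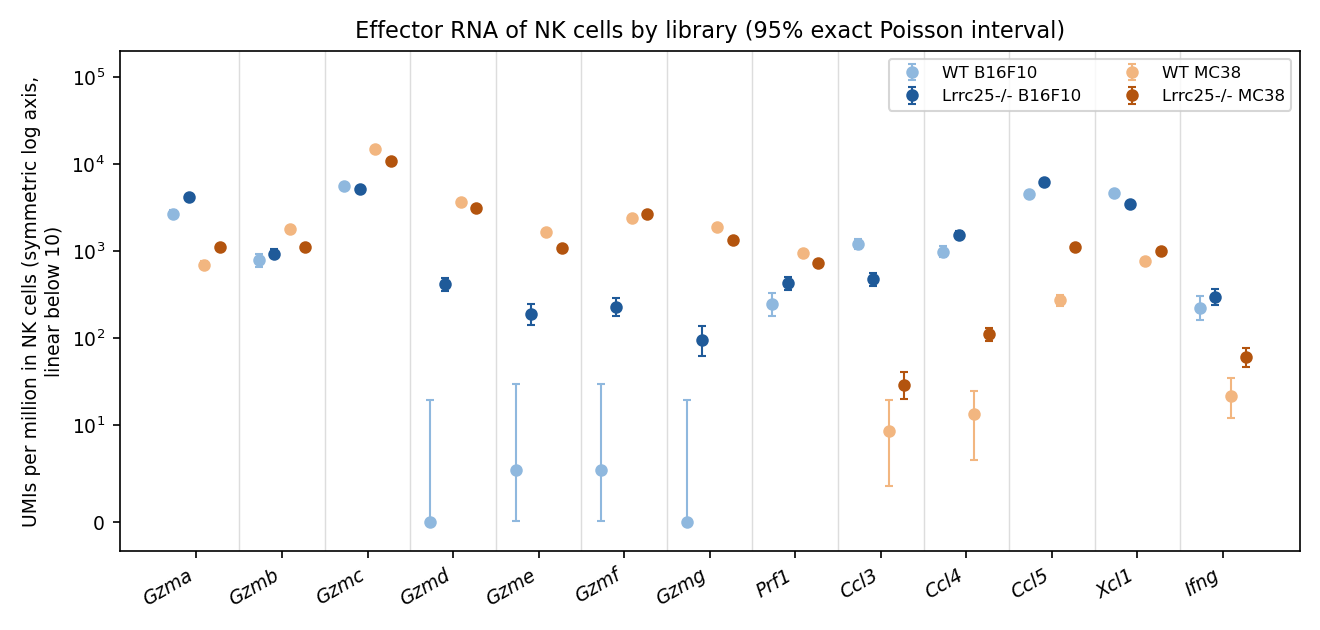
CPM of 13 effector genes in NK cells of each library (symmetric log axis, linear below 10), with 95% exact Poisson intervals. Ccl3, Ccl4, Ccl5, Xcl1 and Ifng lie higher in both B16F10 libraries, and Gzmc to Gzmg higher in both MC38 libraries.

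Receptors were lower in MC38 for the activating side. Outside the gate, 6 of 11 tested activating receptors were lower and none higher, against 18% and 19.8% of all genes. Their median log2 fold was -0.66, but DESeq2 called 1 of these receptors. Cd2, an adhesion receptor, was at 225, 237, 71.1 and 92.3 CPM (-1.79 ± 0.29, edgeR adjusted p = 1.7e-08, DESeq2 0.0086). Klrk1, the gene of NKG2D, was at 295, 338, 232 and 261 CPM and its call (edgeR adjusted p = 0.027, DESeq2 0.33) was lost in each of the 10 alternatives. On the inhibitory side 3 of 11 were higher and 2 lower, near the 19.8% and 18% of all genes. Klrb1b, a lectin-like inhibitory receptor, stood at 118, 270, 436 and 483 CPM (0.97 ± 0.26, edgeR adjusted p = 0.0015, DESeq2 0.072). Havcr2, the gene of TIM-3, gave 0, 1, 44 and 39 UMIs, all but 1 of them in MC38.

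Tissue residency genes moved in both directions, 4 higher and 8 lower of 16 tested, against 19.8% and 18% of all genes. Itga1, which encodes CD49a and marks tissue-resident innate lymphocytes, was at 10.7, 10.1, 129 and 86.1 CPM (log2 fold 2.99 ± 0.53, edgeR adjusted p = 3.9e-07, DESeq2 0.021). It gave UMIs in 2 of 54 and 3 of 89 B16F10 cells but in 41 of 88 and 46 of 167 MC38 cells. Inpp4b, a phosphoinositide phosphatase, was at 32.2, 27.0, 204 and 178 CPM (2.38 ± 0.39, edgeR adjusted p = 4.8e-08, DESeq2 0.006). Itga2 (CD49b), the usual marker of circulating NK cells, was low throughout, at 3, 6, 7 and 21 UMIs. Too few cells held Itga1 alone or Itga2 alone to compare them: 2 and 3, 3 and 6, 38 and 2, and 45 and 12.

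Among transcription factors outside the gate 5 of 21 were higher in MC38 and 5 lower, near the 19.8% and 18% of all genes. Bach2, a repressor of effector programs, was at 140, 230, 512 and 722 CPM (1.45 ± 0.26, edgeR adjusted p = 7.9e-07, DESeq2 0.0018), and Runx2 at 69.8, 67.6, 241 and 232 CPM (1.48 ± 0.32, edgeR adjusted p = 4.8e-05, DESeq2 0.041). Tbx21, the gene of T-bet, gave 64.4, 71.0, 57.7 and 77.2 CPM and did not pass (edgeR adjusted p = 0.53, DESeq2 0.86). Styk1, a kinase-like receptor of the NK lineage, was at 16.1, 40.6, 201 and 204 CPM (2.44 ± 0.39, edgeR adjusted p = 1.2e-08, DESeq2 0.0041). Cd7, an immunoglobulin-family antigen of early lymphocytes, was at 172, 429, 14.8 and 63.9 CPM (-3.29 ± 0.31, edgeR adjusted p = 1.3e-23, DESeq2 5e-08), higher in both B16F10 libraries.

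Heat shock and respiratory genes were lower in MC38, and not in NK cells alone. Of 22 immediate early and stress genes 15 were lower and 2 higher, against 18% and 19.8% of all genes. Hspa1a, an inducible HSP70 gene, stood at 703, 1369, 9.39 and 12.4 CPM in NK cells and at 1053, 1126, 121 and 69.5 CPM in macrophages. By edgeR's interaction test the model difference was lower in NK than in CD8 T cells for 4 of 23 tested genes of this list. These were Hspa1a, Hspa1b, Hsph1 and Nr4a2, and 0 were higher, against 0.535% lower and 1.22% higher of all genes. Of 24 respiratory chain genes 22 were lower, with a median of -0.92. Cox4i1, a cytochrome oxidase subunit, was at 1315, 1106, 464 and 577 CPM in NK cells and at 1116, 1004, 507 and 593 CPM in CD8 T cells, so both classes shared the order. Cycling NK cells, with at least 2 UMIs over 8 proliferation genes, made up 20.4%, 11.2%, 38.6% and 18.6%, shares that also move with depth. Mki67, a marker of cycling cells, stood at 37.6, 33.8, 215 and 139 CPM (1.95 ± 0.38, edgeR adjusted p = 5.1e-06, DESeq2 0.026), while 11 of the 24 proliferation genes tested were lower in MC38.

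A group of closely related granzymes was high in part of the MC38 cells. Gzmd, Gzme, Gzmf and Gzmg lie in the granzyme cluster of chromosome 14 on the minus strand, at 56129556 to 56132608, 56117626 to 56120625, 56205263 to 56211417 and 56156582 to 56159579 (mm10, GENCODE M21). Their ends are shown because a 3' kit reads that end and must tell the copies apart. The last 60 coding bases, stop codon included, differ at 7 positions, given in capitals:
Gzmd (chr14:56129675-56129734, minus strand): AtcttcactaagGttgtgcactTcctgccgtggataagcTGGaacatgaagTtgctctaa
Gzme (chr14:56117726-56117785, minus strand): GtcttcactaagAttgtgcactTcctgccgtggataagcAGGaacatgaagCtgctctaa
Gzmf (chr14:56205375-56205434, minus strand): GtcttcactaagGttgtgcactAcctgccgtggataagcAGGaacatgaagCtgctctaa
Gzmg (chr14:56156689-56156748, minus strand): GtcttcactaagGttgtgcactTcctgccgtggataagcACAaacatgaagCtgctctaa

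Any pair differs at 2 to 5 of the 60 bases, Gzme and Gzmf at 2. Of the 31-base words in the last 300 transcript bases, 31.9% of those of Gzmd, 35.9% of Gzme, 23% of Gzmf and 39.3% of Gzmg also occur in another granzyme transcript, against none for Gzmb and Gzmc. The split of UMIs among the 4 is therefore uncertain, and they are best read as 1 group. The deposited counts put Gzmd at 0, 416, 3703 and 3149 CPM, Gzme at 5.37, 189, 1662 and 1080, Gzmf at 5.37, 230, 2377 and 2637, and Gzmg at 0, 94.7, 1894 and 1354. In Lrrc25-/- B16F10 99% of the Gzmd UMIs came from 1 cell. The model folds were 4.10, 3.50, 4.30 and 4.64 on the log2 scale and passed in edgeR (largest adjusted p = 4.4e-35), with DESeq2 adjusted p of 0.13, 0.074, 0.024 and 0.076.

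Within MC38 the group was uneven among cells. At least 10 UMIs over the 4 genes were found in 0 of 54 (exact upper bound 6.6%), 2 of 89 (2.25%), 42 of 88 (47.7%, exact interval 37.0 to 58.6) and 34 of 167 (20.4%, 14.5 to 27.3) NK cells, and none in 52, 86, 32 and 103. This division was made after the values were seen and is a description only. The group was not confined to NK cells: of 298 and 362 kept MC38 barcodes with at least 10 of these UMIs, 206 and 265 were gated T cells. In CD8 T cells Gzmf stood at 70.9, 63.9, 3535 and 2121 CPM and Gzmd at 18.5, 22.3, 847 and 436 CPM. In macrophages of WT and Lrrc25-/- MC38 a UMI of the group was found in 7.69% and 9.69% of cells. The granzyme-rich cells were deeper, with median UMIs of 10112.5 and 9718 against 4171 and 3041 in those without a UMI of the group.

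**Figure D4:**
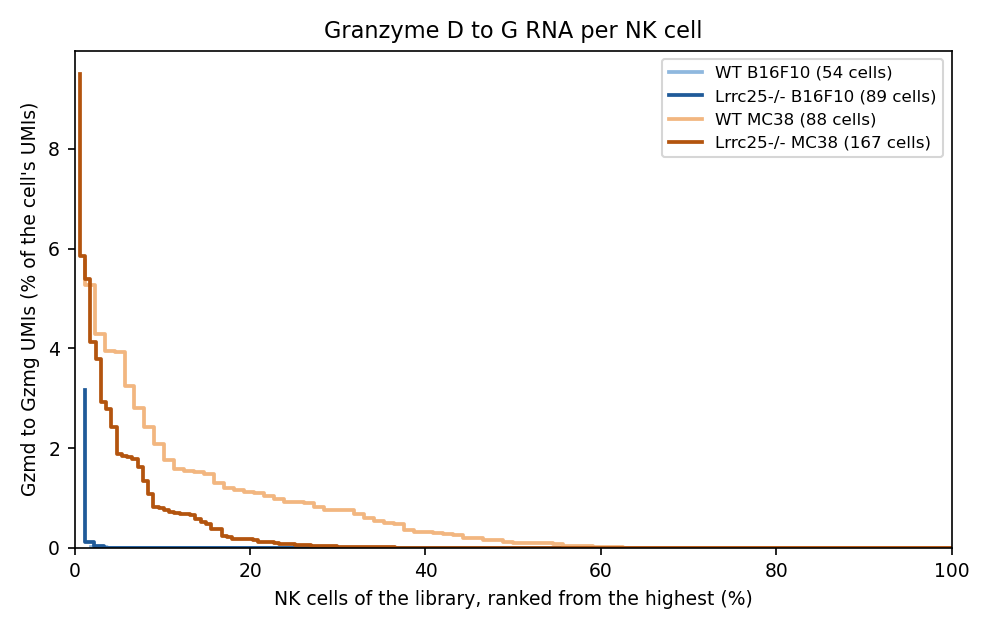
Gzmd to Gzmg UMIs as a percentage of each NK cell's UMIs, with the cells of a library ranked from the highest along the horizontal axis. The group exceeds 1% of UMIs in 20 of 88 WT MC38 cells, 15 of 167 Lrrc25-/- MC38 cells and 1 B16F10 cell; the highest single cell, at 9.50%, is from Lrrc25-/- MC38.

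The granzyme-rich cells had another profile per UMI. Ccl5 was at 10.7 CPM in them and 1071 CPM in the cells with no UMI of the group in WT MC38, and at 24.1 and 2481 CPM in Lrrc25-/- MC38. Gzma followed, at 436 and 1350 CPM in WT and 423 and 2119 CPM in Lrrc25-/-. Klf2, a transcription factor of quiescence and recirculation, was at 32.2 and 219 CPM in WT and 48.2 and 503 CPM in Lrrc25-/-. All 3 were lower in granzyme-rich cells in both libraries.

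Itga1 ran the opposite way, at 163 CPM in granzyme-rich and 54.7 CPM in the other WT cells, and at 158 and 44.2 CPM in Lrrc25-/-. So did Prf1, at 1254 and 454 CPM and at 1193 and 501 CPM, and Havcr2, at 90.2 and 0 CPM and at 66.9 and 18.9 CPM. Spp1, a secreted phosphoprotein made mainly by macrophages, was at 6139 and 421 CPM in WT and 4072 and 179 CPM in Lrrc25-/-. The macrophage level of Spp1 in those libraries was 1778 and 943 CPM, below that of the granzyme-rich cells. Eomes was found on both sides, at 98.7 and 131 CPM and at 93.6 and 189 CPM.

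Genotype was compared within each model by a size rule, since no test was possible: at least 20 CPM in either library, a summed count of at least 50 and a 1.5-fold difference of CPM + 1. In B16F10 156 of 1166 measured genes (13.4%) were higher in Lrrc25-/- NK cells and 116 (9.95%) lower. In MC38 521 of 4942 (10.5%) were higher and 230 (4.65%) lower. The median log2 fold of all measured genes was -0.02 and 0.07. Of 1152 genes measured in both models 154 were higher in B16F10 and 102 in MC38, and 35 were higher in both. The 35 were 22.7% of the 154, beside 102 of all 1152 genes higher in MC38. They were 34.3% of the 102, beside 154 of all 1152 higher in B16F10. Of the same 1152 genes 109 were lower in B16F10 and 32 in MC38. Pcna was the 1 gene lower in both, or 0.917% of the 109 and 3.125% of the 32, and 15 genes went opposite ways. The size of these overlaps was not tested.

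Klf2 headed the genes higher in both models. It stood at 252 and 690 CPM in WT and Lrrc25-/- B16F10, a ratio of 2.74 (exact interval 1.98 to 3.84), and at 83.2 and 274 CPM in MC38, a ratio of 3.30 (2.50 to 4.41). Its UMIs came from 20 of 54, 56 of 89, 23 of 88 and 71 of 167 cells. In macrophages, whose RNA was also higher in the Lrrc25-/- NK cells, Klf2 stood at 118, 149, 120 and 117 CPM. In CD8 T cells Klf2 was at 178 and 367 CPM in B16F10 and at 123 and 119 CPM in MC38. The genotype difference of NK cells less that of CD8 T cells was 1.15 on the log2 scale and did not pass (edgeR interaction, adjusted p = 0.11).

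Cd7 was at 172 and 429 CPM in B16F10, a ratio of 2.50 (1.69 to 3.81), and at 14.8 and 63.9 CPM in MC38, a ratio of 4.33 (2.28 to 9.06). Sytl3, a synaptotagmin-like protein of vesicle transport, was at 129 and 396 CPM (3.07, 1.97 to 4.99) and at 181 and 400 CPM (2.21, 1.82 to 2.70), in 18, 46, 57 and 135 cells. Without cells over 2 times the median UMIs, the B16F10 log2 folds of Klf2 and Cd7 were 0.76 and 0.66, against 1.45 and 1.32 over all, while that of Sytl3 was 1.55 against 1.61. Both Cd7 and Sytl3 were nearly silent in macrophages, at 2.70 CPM or less. Among MC38 cells with no Gzmd to Gzmg UMI, the log2 folds of Klf2, Cd7 and Sytl3 were 1.20, 1.5 and 1.14, against 1.71, 2.04 and 1.14 over all MC38 NK cells. The 3 genes lie at chr8:72319033-72321656 (plus strand), chr11:121036747-121039418 (minus strand) and chr17:6659093-6738044 (plus strand) of mm10.

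Immediate early and stress genes were higher as a group in Lrrc25-/-. By the size rule 13 of 18 measured were higher in B16F10 and 11 of 20 in MC38, with none lower in either, and their median log2 folds were 0.69 and 0.61. Over all genes the higher shares were the 13.4% and 10.5% given above. Jund, a subunit of AP-1, stood at 188, 507, 432 and 718 CPM, Nr4a1, a nuclear receptor induced by receptor signals, at 113, 183, 28.2 and 73.7 CPM, and Dusp1, a phosphatase that turns off MAP kinases, at 156, 308, 53.6 and 100 CPM. In each of these 3 genes the Lrrc25-/- library was the higher of its model. Nr4a2 followed at 134, 260, 52.3 and 192 CPM, but in B16F10 its log2 fold of 0.95 became -0.33 without cycling cells. The 5 heat shock genes among the 13 (Hspa1a, Hspa1b, Hsph1, Dnajb1 and Hsp90aa1) were not among the 11 of MC38: Hspa1b stood at 172 and 649 CPM in B16F10 and at 9.39 and 9.77 CPM in MC38. In B16F10 the Dnajb1 fold turned to -1.22 with a C1q sum up to 10, and that of Hspa1a went from 0.96 to 0.054 with at least 2 receptor UMIs. The macrophage markers were also higher in both Lrrc25-/- libraries, and macrophages carry these genes, Jund at 276, 248, 421 and 461 CPM. Their part in these differences was not tested.

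**Figure D5:**
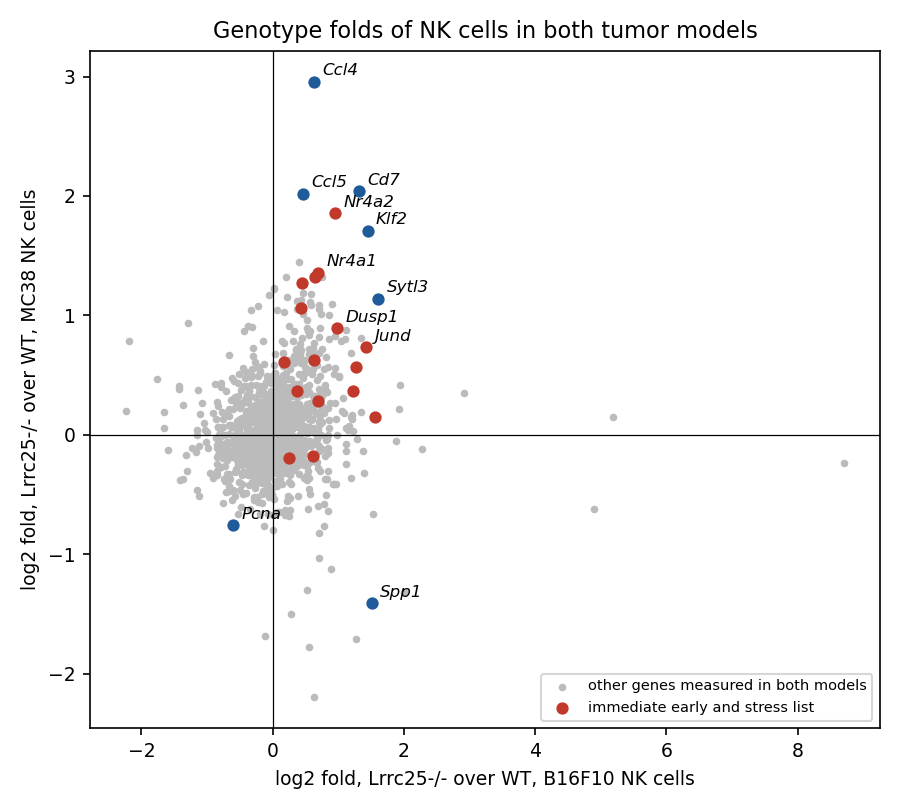
log2 fold of Lrrc25-/- over WT in NK cells of MC38 (vertical) against that of B16F10 (horizontal) for the 1152 genes measured in both models. The 16 immediate early and stress genes measured in both (red) include 14 above 0 in both models. The share of all 1152 genes above 0 in both models was not counted. Klf2, Cd7 and Sytl3 (blue) lie beyond 1 on both axes.

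Of the 15 genes named for being higher in both models 9 remain. Runx1, a transcription factor of lymphoid cells, was at 134, 260, 211 and 374 CPM, Nfatc1, which calcineurin activates, at 75.1, 142, 72.4 and 156 CPM, and Smad7, an inhibitor of TGF-beta signals, at 102, 186, 105 and 210 CPM. Prkch, a protein kinase C isoform, was at 150, 311, 252 and 435 CPM, and Kdm2b, a histone demethylase, at 69.8, 179, 126 and 222 CPM. Adgre5, the adhesion receptor CD97, was at 96.6, 210, 125 and 218 CPM, and Pitpnc1, a lipid transfer protein, at 107, 196, 259 and 451 CPM. Gna13, a G protein subunit, was at 166, 281, 68.4 and 172 CPM, and Ppp1r15a, which reverses the translation block of the stress response, at 69.8, 152, 65.7 and 122 CPM. In all 9 the Lrrc25-/- library was the higher of its model, as the choice of these genes fixed.

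Over both models edgeR called Ccl5 (1.19 ± 0.17, adjusted p = 1.9e-09) and Ccl4 (1.41 ± 0.25, adjusted p = 1.5e-05) higher in Lrrc25-/- NK cells, and DESeq2 called neither. Whether the genotype difference differs between the models was not tested. For Ccl5 the ratio of Lrrc25-/- to WT was 1.38 (1.27 to 1.5) in B16F10, which missed the size rule, and 4.07 (3.50 to 4.74) in MC38. Its log2 fold in B16F10 ranged from -0.26 to 1.48 over the alternatives, so its direction there is not settled. In MC38 cells with no Gzmd to Gzmg UMI the Ccl5 fold was 1.21 on the log2 scale against 2.02 over all. CD8 T cells of MC38 carried the same order of Ccl5, 441 and 1527 CPM. Ccl4 was at 987 and 1535 CPM in B16F10 and at 13.4 and 111 CPM in MC38, where 60% of the 10 WT UMIs came from 1 cell. Ifng in MC38 gave 16 and 68 UMIs (21.5 and 60.4 CPM, ratio 2.81, 1.61 to 5.20) and in B16F10 42 and 88 (ratio 1.32, 0.904 to 1.96). Ccl3 was lower by the size rule in B16F10, but 50% of its WT UMIs came from 1 cell and the direction turned in 3 alternatives.

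The cytotoxic genes showed no shared direction. The ratio for Gzma was 1.56 (1.40 to 1.73) in B16F10 and 1.59 (1.44 to 1.77) in MC38, but its log2 fold in B16F10 was -0.10 without cells over 2 times the median UMIs. For Prf1 the ratio was 1.74 (1.23 to 2.49) in B16F10, while MC38 gave 0.772 (0.697 to 0.854). Gzmb was lower in Lrrc25-/- MC38 by the size rule, at 1793 and 1117 CPM. Outside the gate 4 of 14 granule genes were higher in B16F10, against 13.4% of all genes, with Gzmd, Gzme and Gzmf resting on 1 cell. In MC38 19 granule genes were measured with Gzma and Prf1 counted, and outside the gate none was higher and 3 were lower. Over all genes 10.5% were higher in Lrrc25-/- MC38 and 4.65% lower. Of 23 measured cytokine receptor and signalling genes 10 were higher there and none lower (median 0.52). They include Socs3, a feedback inhibitor of cytokine signals, at 21.5 and 64.8 CPM, Tgfbr1 at 22.8 and 61.3 CPM and Il12rb2, an IL-12 receptor chain, at 110 and 176 CPM. In B16F10 1 of 7 was higher, against 13.4% of all genes.

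Fewer genes were lower, and several rested on single cells. Pcna, the replication clamp, was at 231, 152, 233 and 138 CPM, and in B16F10 4 of 8 measured proliferation genes were lower, against 9.95% of all genes, among them Stmn1 at 703 and 284 CPM. In MC38 2 of 23 were lower (Mki67 and Pcna), against 4.65%. Ccl1, a chemokine, gave 537 UMIs in 3 WT cells and 31 in 5 Lrrc25-/- cells of B16F10, with 58% of the WT UMIs in 1 cell. Of the Gadd45g UMIs in WT MC38 83% came from 1 cell. Plcb1 went from 880 to 13.5 CPM in B16F10 NK cells, and in macrophages of those libraries from 686 to 13.2 CPM and in CD8 T cells from 743 to 8.86 CPM, so the gap was common to all 3 classes. Spp1 was higher with Lrrc25-/- in B16F10 (225 and 646 CPM) and lower in MC38 (4022 and 1515 CPM), the order that macrophages also had.

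Fitted over both models, with the model as a second term, edgeR called 17 genes (0.278%) of 6113 higher in Lrrc25-/- NK cells. It called 11 (0.18%) lower, or 0.458% in either direction. Of the 17 genes 2, and of the 11 genes 6, were markers of other cells or over 5 times higher in macrophages or melanoma cells. Such markers were Lyz2 among the higher genes and Il1r2, Col1a2 and Col3a1 among the lower. Of the 28 genes 26 had the same direction in both models, which the choice by this fit favored. Klf2 rose by 1.56 ± 0.26 on the log2 scale (edgeR adjusted p = 2.2e-06), Cd7 by 1.59 ± 0.32 (0.00028), Sytl3 by 1.29 ± 0.26 (0.00037), Nr4a2 by 1.44 ± 0.29 (0.00041) and Jund by 0.98 ± 0.25 (0.021). Fosl2, another AP-1 subunit, at 42.9, 132, 37.6 and 123 CPM, rose by 1.63 ± 0.34 (edgeR adjusted p = 0.00085). Zc3h12a, an RNase that limits inflammatory RNA, at 10.7, 87.9, 22.8 and 58.6 CPM, rose by 1.68 ± 0.43 (0.029). These calls are not firm. DESeq2 called only Ccl1, with 32 genes at an unadjusted p under 0.05 against 419 in edgeR, and without the 82 NK cells over 2 times their library's median UMIs edgeR called 0 higher and 1 lower. In that fit the folds of Klf2, Cd7 and Sytl3 were 1.25, 1.5 and 1.60.

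The NK cells were set against CD8 T cells of the same libraries, which share each library's conditions, to test whether their genotype differences differ. Of 9726 genes edgeR called 8 (0.0823%) higher in NK cells and 6 (0.0617%) lower, or 0.144% in either direction, and DESeq2 called 0, with 344 and 21 genes at an unadjusted p under 0.05. Hspa1b was among the 8, at 1.97 on the log2 scale (edgeR adjusted p = 0.002). For the model difference edgeR called 119 (1.22%) higher and 52 (0.535%) lower, or 1.76% in either direction. Beside Ifng, Tbx21 (-2.13, edgeR adjusted p = 0.00011), Il2rb (-1.40, adjusted p = 0.0011, DESeq2 0.0032) and Styk1 (-3.95, adjusted p = 3e-06) were lower in NK than in CD8 T cells on this scale; DESeq2 gave no adjusted p for Tbx21 and Styk1. In CD8 T cells Il2rb went from 152 and 292 CPM in B16F10 to 740 and 618 CPM in MC38, and in NK cells it was near level.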

How the data were processed

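Cells of tumor tissue were measured in 4 single-cell libraries, 1 per group. The deposited matrices hold raw UMI counts per gene and barcode; the genome build is mm10 per the submitters' processing notes, with aligner and annotation not given in the sources used here. Total UMIs per library were 138841749, 122558030, 105338548 and 118098009. Barcodes were filtered and gated as described, and UMIs of NK cells summed per library and scaled to 1000000 (CPM). Gene models and sequences came from GENCODE M21. CD8 T cells had at least 2 Cd3 UMIs, Cd8a or Cd8b1, no Cd4, Ncr1 or Klrb1c and at most 2 C1q UMIs; macrophages had at least 10 C1q UMIs and no Cd3, Ncr1 or Klrb1c; T cells had at least 2 Cd3 UMIs.

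Fits used edgeR 4.0.16 (quasi-likelihood test, Benjamini-Hochberg adjustment, in R 4.3.3) with DESeq2 1.42.0 as the alternative, and Python 3.11.15, numpy 2.4.6, scipy 1.17.1, pandas 2.3.3 and matplotlib 3.10.9 for the rest. Each additive fit had 1 residual degree of freedom. Every adjusted p under a tool's name is from that fit over all genes tested. Tested on simulated data, the genotype fit called 20% of 2-fold and 77% of 4-fold changes among 5810 genes, and the model fit 19% and 77% among 5741. The simulated counts had the trended spread that the fit itself assumes, with none particular to a gene or a single cell. These shares may therefore not hold for the real counts. Intervals are exact, at 95%, and cover counting error only. Since each group is 1 pool, no p-value measures the spread between mice. The edgeR fits took their spread from the trend over all genes, so their p-values do not measure a single gene's own spread between libraries.

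Members and gene lists (32 lists, 450 genes, 445 of them in the files) were chosen with earlier results of these data known. Genes were named from several sets, first the gate and marker genes and list members called or most abundant. From the size rule came up to 12 of the largest differences per direction and model, and up to 15 shared by both models. From the tests came up to 12 per direction past an adjusted p of 0.05. Not every gene of these sets is named above. Ribosomal, mitochondrial, immunoglobulin, predicted and other-cell genes were left out. Closely related genes (granzymes D to G, Klra genes) may share counts. Alternatives changed the gate, depth, filter, scaling and test. Some list members that passed no call, such as Tbx21, Itga2 and Trac, were named after their values were seen.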

Additional observations from a re-analysis of the deposited data

Results flagged for a closer look

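In NK cells 15 genes passed the size rule in opposite directions in the tumor models; the difference between the models was not tested. The log2 folds of Lrrc25-/- over WT, given as B16F10 then MC38, were 4.90 and -0.62 for Gzme, 1.51 and -1.41 for Spp1, 0.63 and -2.20 for Serpinb9b, 0.69 and -0.60 for Tnfrsf9, and 2.01 and -1.32 for Ifitm1. For the chemokines they were 1.28 and -1.71 for Ccl6, 0.88 and -1.12 for Ccl7, and 0.79 and -0.76 for Cxcl1. They were 0.70 and -0.82 for Ctsd, 1.53 and -0.67 for Ighm, 0.85 and -0.64 for Atp5md, and 0.71 and -1.03 for Polr2k. Going the other way, they were -2.18 and 0.79 for H2-Aa, -1.29 and 0.94 for Ly6a, and -0.66 and 0.67 for Eif4a2.

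The genotype difference of NK cells less that of CD8 T cells passed edgeR's interaction test for 14 genes, and DESeq2 called 0 of them. It was higher in NK cells for Chil3 (9.04), Dkk2 (3.43), Hmga2 (2.23), Gzmg (2.0), Klra4 (1.98), Hspa1b (1.97), Gzmf (1.63) and Gzmd (1.60), on the log2 scale. It was lower for Igha (-3.16), Tnip3 (-3.09), Arg1 (-2.38), Il1r2 (-2.14), Gadd45g (-1.79) and Cxcl2 (-1.32). Of the NK UMIs of Hmga2 92.7% and of Dkk2 96.7% lay in the 13 barcodes rich in tumor or stromal RNA; Hmga2 was used to pick them, and the interaction was not fitted without them. Klra4 belongs to the gate.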

How the results depend on the processing

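The counts moved with most settings, and the cause was not tested. The number of genes measured moved as well. Within B16F10 it was 1166 at the main setting and 394 with Cd3 and C1q sums of 0. It was 521 without cells over 2 times the median UMIs, 169 without other-lineage cells and 663 without cycling cells. Within MC38 it was 4942, 2069 with sums of 0 and 1281 without other-lineage cells. Without other-lineage cells, 9 of the 22 genes higher in B16F10 and 0 of the 10 lower were among the main 156 and 116. Counts are given as higher then lower. Within B16F10 (156 and 116) they were 45 and 33 at 2-fold, 553 and 382 at a summed count of 20, 74 and 41 with Cd3 and C1q sums of 0, 68 and 31 without cells over 2 times the median UMIs, 22 and 10 without cells with other-lineage UMIs, 89 and 50 without cycling cells, and 340 and 292 with a C1q sum up to 10. Within MC38 (521 and 230) they were 119 and 47 at 2-fold, 782 and 517 at a count of 20, and 286 and 148 with sums of 0. There the lower count was 500 by the mean per-cell CPM, 153 without other-lineage cells and 375 with C1q up to 10.

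For genotype over both models (17 and 11) they were 11 and 19 with C1q up to 10, 4 and 4 with sums of 0, 0 and 1 by DESeq2, 0 and 0 without the model term, 0 and 1 without cells over 2 times the median UMIs, and 4 and 6 without other-lineage cells. The higher count was 30 without tumor-gene cells, and the lower was 5 with at least 2 receptor UMIs and 6 without cycling cells. For the tumor model (1211 and 1098) they were 344 and 371 with sums of 0, 155 and 224 by DESeq2, 724 and 668 with 2 receptor UMIs, 251 and 281 without cells over 2 times the median UMIs, 99 and 56 without other-lineage cells, and 426 and 454 without cycling cells. For NK against CD8 T cells DESeq2 gave 0 and 0 for genotype and 14 and 18 for the model, and no filter gave 63 higher for the model.

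The B16F10 share ratio of 1.31 was 0.950 per T cell, 2.14 with 2 receptor UMIs, 0.598 per T cell after thinning to 1000 UMIs and 2.69 after thinning to 2000. Per kept barcode it was 1.28 after thinning to 1000 and 1.40 with Cd3 and C1q sums of 0. The MC38 ratio of 1.96 was 1.04 per T cell, 1.11 with sums of 0, 3.22 after thinning to 1000 and 2.60 after thinning to 2000.

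Of 175 named folds 18 lay on both sides of 0 over their settings. Of these, 8 had passed no call: those of Ccl5, Junb and Klrb1c in B16F10, Prf1 and Gzmf in MC38, and Gzmb, Il2rb and Tbx21 for the tumor model. The other 10, which had, changed sign as follows. In B16F10 Nr4a2 was -0.33 without cycling cells. Gzma there was -0.10 without cells over 2 times the median UMIs, -0.035 without other-lineage cells and -0.027 without cycling cells. Dnajb1 was -1.22 with C1q up to 10, and Ccl3 was 0.46 by the mean per-cell CPM, 1.84 without cells over 2 times the median UMIs and 1.10 without cycling cells. In MC38 Gbp2 was -0.45 with C1q up to 10 and Serpinb9b 0.45 without cells over 2 times the median UMIs. For genotype over both models Gbp2 was -0.22 with C1q up to 10, and Gzmd was -0.25 with sums of 0, -0.077 without the model term, -2.37 without cells over 2 times the median UMIs and -3.08 without other-lineage cells. For the tumor model Stmn1 was 0.29 with sums of 0 and Tgfbr2 -0.84 without other-lineage cells. Of 698 edgeR values of 75 named results 535 kept their call or their lack of one, 153 lost and 3 gained the call. The other 7 changed sign with a call in at least 1 of the fits compared. The 535 include changes of sign where neither fit gave a call, as for Il2rb and Tbx21. Of 890 values by size 664 moved by less than the counting interval.

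No paired analysis was possible because each group is 1 library. Without 1 library the additive fit has no residual degrees of freedom and gives the other model's own fold. The planned split by Itga1 and Itga2 was not run, since only Lrrc25-/- MC38 had 10 cells of each. The settings with C1q up to 10, without tumor-gene cells, without other-lineage cells in the fits over both models, and DESeq2 and no filter for the NK against CD8 T model difference were chosen after seeing the data. Depth limits B16F10 most, where 186377 and 295773 UMIs were held by NK cells.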
